A study of Mus musculus with 15 samples.

Results

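The genes described here are 10 protein-coding mouse genes, Gpa33, Klk10, Podnl1, Tnfrsf22, Tns4, Fhl2, Igf2bp1, Hmga2, Tfap2a and E2f7, out of 54838 genes in the deposited tables. They were chosen by their measured levels, high in both groups of 4T1 carcinoma cells and low in distal lung epithelium, so those levels are given as a description only. All 10 symbols matched 1 Ensembl identifier each. The question followed through the data is how much of each transcript appeared in lung epithelium taken from next to metastases, and whether that amount differed in the niche libraries labelled shSox9. The libraries are bulk, so they count transcripts of every cell in the sorted fraction.

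RNA was sequenced from 5 groups of 3 libraries each. The epithelial cells came from BALB/c mouse lungs 7 days after 800000 4T1 cells that label their neighbours had been injected into the tail vein. By title, the libraries of these cells were niche with the label shSox9, niche without it, and distal lung, with 5 lungs pooled per replicate. The label shSox9 is part of a library title, and no source used here says that cells were sorted by it. The remaining groups were cells of 4T1, a carcinoma line that arose in the mammary gland of a BALB/c mouse, recovered from lungs 7 days after injection (in vivo) and 4T1 cells grown in the dish (in vitro). Mouse strain and carcinoma line were thus the same throughout, and distal cells came from injected lungs too. Which cells received the Sox9 hairpin, and whether the niche group had a control hairpin, is not stated in the labels. Nothing in the labels says that the 4T1 replicates came from separate animals or cultures, so p-values between them measure the spread of these libraries, which may be technical.

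The products of these genes act in different places. Gpa33 encodes a surface glycoprotein of the immunoglobulin superfamily known from intestinal epithelium, Klk10 a secreted member of the kallikrein-related peptidases, Podnl1 a small leucine-rich matrix protein, and Tnfrsf22 a mouse decoy receptor for the death ligand TRAIL. Tns4 encodes a tensin found at focal adhesions and Fhl2 a LIM-domain adaptor that shuttles between adhesions and the nucleus. Igf2bp1 encodes an RNA-binding protein and Hmga2 an architectural chromatin protein; both are abundant in the embryo, low in most adult tissues, and textbook targets of the let-7 microRNAs. Tfap2a encodes the transcription factor AP-2 alpha of skin and neural crest, and E2f7 an atypical E2F factor that represses genes of the cell cycle.

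Because let-7 is the best known regulator of Igf2bp1 and Hmga2, the sites that its seed could pair with are shown for the listed genes. In these mature let-7 sequences from RefSeq (GRCm38.p6), capitals mark the seed, bases 2 to 8.
mmu-let-7g-5p: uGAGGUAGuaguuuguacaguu
mmu-let-7i-5p: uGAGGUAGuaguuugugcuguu
mmu-let-7d-5p: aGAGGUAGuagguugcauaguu
All 3 share one seed. Its reverse complement in DNA letters, CTACCTC, was searched on the transcript strand of the longest annotated 3′ UTR of each gene (GENCODE M21, GRCm38). Igf2bp1 had 4 matches, Hmga2 had 4, Klk10 had 2 and E2f7 had 1, and the UTRs of the other 6 genes held none. Of 21007 protein-coding genes, 9.02% had at least 1 match and 0.152% had at least 3. UTR length differs among the genes, with 6337 bases for Igf2bp1, 3014 for Hmga2, 2546 for E2f7 and 388 for Klk10. A match is a string of letters and not a proven site, and microRNAs were not analysed here.

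The matches in Igf2bp1 lie on the minus strand of chromosome 11, at chr11:95961772-95961801, chr11:95959351-95959380, chr11:95958757-95958786 and chr11:95958134-95958163, with the match in capitals.
Igf2bp1 site 1: tgctgtgcgaagtaaaCTACCTCaaggtgt
Igf2bp1 site 2: ccagcagtgctattaaCTACCTCagcccca
Igf2bp1 site 3: agtataaatggatgaaCTACCTCagtcctc
Igf2bp1 site 4: cacttttggttttaatCTACCTCttagcaa
Those in Hmga2 lie on the minus strand of chromosome 10, at chr10:120364218-120364247, chr10:120362981-120363010, chr10:120362543-120362572 and chr10:120361685-120361714.
Hmga2 site 1: cgccgacattcaatttCTACCTCagcatca
Hmga2 site 2: tccccactcctcaataCTACCTCtgaatgc
Hmga2 site 3: cctgatttgcaaggaaCTACCTCcacactt
Hmga2 site 4: caatcaaaacacactaCTACCTCttaagtc
The matches in Klk10 are on the plus strand at chr7:43785176-43785205 and chr7:43785265-43785294, and the one in E2f7 is on the plus strand at chr10:110786984-110787013.
Klk10 site 1: acctgtcattcaacctCTACCTCcctcctc
Klk10 site 2: ggggacaatgaattgtCTACCTCttacata
E2f7 site 1: gcactgaggggatgtgCTACCTCaaaccat

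Promoters were in the RefSeq table for 6 of the 10 genes, 8 promoters in all, with 2 each for Tfap2a and Fhl2. Each promoter holds 300 bases, 250 before and 50 after the start site. The E2F motif, searched as TTTCCCGC or TTTGGCGC on both strands, is in 1.56% of 32851 promoters and, among the listed genes, in that of E2f7, itself an E2F family member. That promoter lies at chr10:110745189-110745488 on the plus strand, and its match, in capitals, begins at position -198 from the start site.
E2f7 promoter: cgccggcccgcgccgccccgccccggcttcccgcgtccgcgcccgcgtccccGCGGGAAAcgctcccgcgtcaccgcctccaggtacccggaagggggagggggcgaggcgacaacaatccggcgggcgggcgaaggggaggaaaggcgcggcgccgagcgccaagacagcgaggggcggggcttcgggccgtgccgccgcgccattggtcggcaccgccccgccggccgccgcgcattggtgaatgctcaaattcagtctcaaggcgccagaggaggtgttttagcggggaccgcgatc
The AP-2 motif GCCNNNGGC, which reads the same on both strands in its fixed letters, is in 16.6% of promoters. Among the 8 promoters of listed genes it is in 1, which is 1 of the 2 of Fhl2.

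Libraries held 15907316 to 30421705 counts, so that 3 counts corresponded to 0.0986 to 0.189 CPM. CPM are counts scaled to library size, here with TMM factors, 1 per library, over all 15 libraries. Markers of several cell types were present in the sorted fractions. Summed over 9 alveolar type 2 (AT2) genes, levels were 34021 to 61167 CPM in niche libraries labelled shSox9, 11398 to 14728 CPM in niche libraries and 244616 to 326477 CPM in distal libraries. Summed over 7 macrophage genes they were 100.6 to 599 CPM in shSox9-labelled libraries, 1928 to 2318 CPM in niche libraries and 181 to 282 CPM in distal libraries, and Marco was at 0 in every distal library. The 5 fibroblast genes summed to 7001 to 11230 CPM in shSox9-labelled, 8524 to 10048 CPM in niche and 2628 to 3061 CPM in distal libraries. Most of that sum was Col1a1, with means of 6345 CPM in shSox9-labelled, 6527 CPM in niche and 1343 CPM in distal libraries. Of the 5, 3 were called higher in niche than in distal libraries and 0 lower, where 28.5% of all genes tested were called higher. Dcn averaged 251.5 CPM in niche and 348 CPM in distal libraries, and Lum 13.3 CPM in niche and 14.6 CPM in distal. Under the label, 2 of the 5 were called higher than in niche libraries and 0 lower, where 9.68% of all genes tested were called higher and 10.8% lower. Sox9 itself, the gene the hairpin is named for, had 84.4, 60.1 and 36.9 CPM in libraries labelled shSox9, against 61.6, 57.1 and 32.8 CPM in niche libraries. In these bulk libraries it was not lower under the label (log2 fold change 0.26, SE 0.27, edgeR adjusted p = 0.55), and the label is used here only as a name. Sox9 averaged 311 CPM in 4T1 in vivo, 201 CPM in 4T1 in vitro and 6.29 CPM in distal libraries. It was thus itself high in 4T1 cells and low in distal epithelium. Which cells in the niche libraries carried Sox9 was not tested.

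Every listed gene was present in the niche libraries at a fraction of its 4T1 level. As a percentage of the gene's mean level in the 3 in vivo 4T1 libraries, niche epithelium held between 16.7% ± 3.01 for Tns4 and 33.9% ± 13.8 for Gpa33, and distal epithelium between 1.15% ± 0.697 for Gpa33 and 4.78% ± 0.680 for Igf2bp1 (SD, n = 3). The median over the 10 genes was 20.2% ± 7.54 in niche libraries labelled shSox9, 23.5% ± 5.35 in niche libraries and 1.96% ± 0.658 in distal libraries (SD, n = 3 each). In edgeR's quasi-likelihood test all 10 were called higher in niche than in distal epithelium at an adjusted p below 0.05 (Benjamini-Hochberg over all genes tested), where 28.5% of the 17640 genes tested were called higher. In shSox9-labelled niche against the same distal libraries it was 8 of 10 (9 without the filter on low counts or without shSox9-labelled replicate 2), where 21.7% of genes were. Low distal levels chose the genes, so nothing is read from either count. Those 2 comparisons share the distal libraries.

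**Figure D1:**
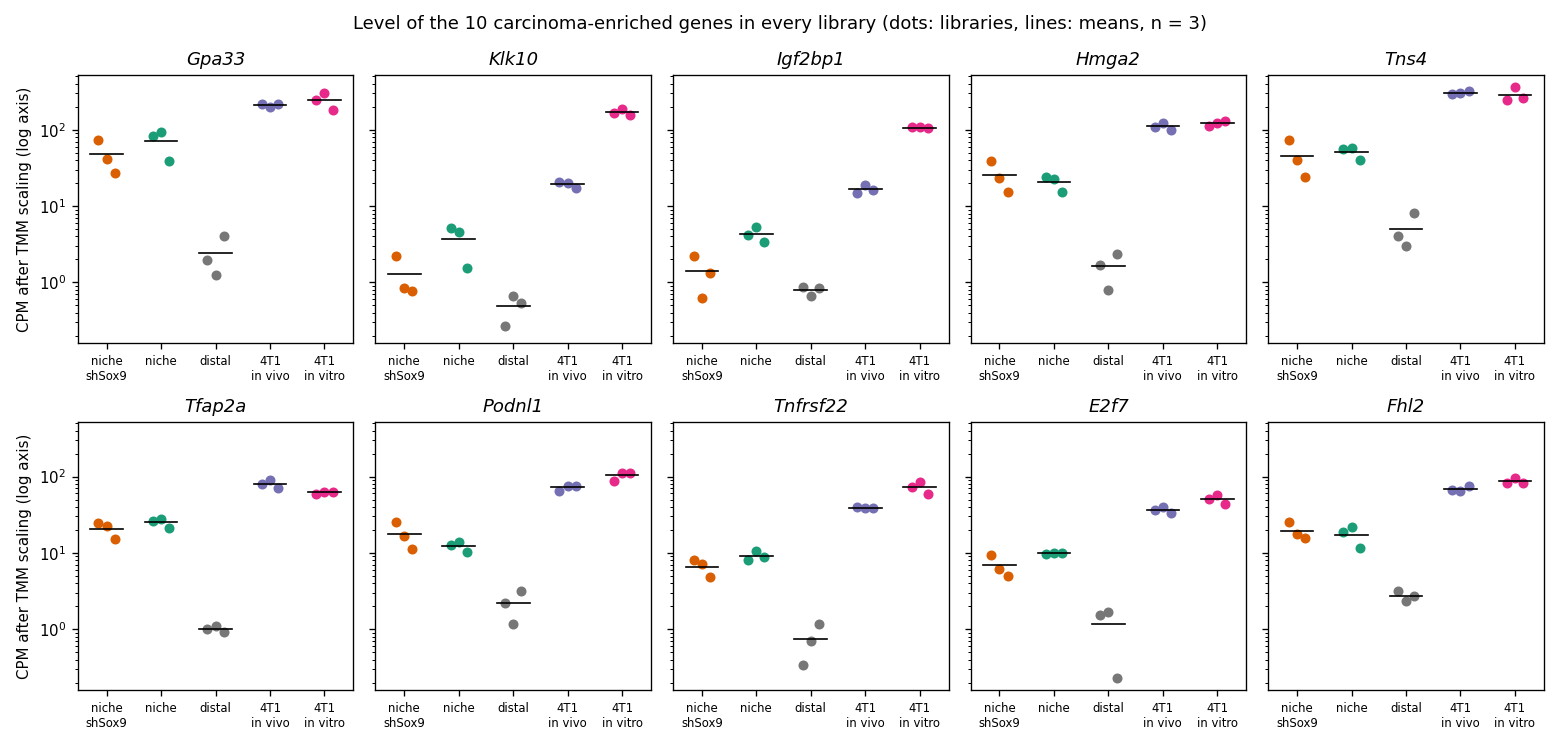
Level of each of the 10 genes in every library, in CPM after TMM scaling on a log axis, for niche labelled shSox9, niche, distal, 4T1 in vivo and 4T1 in vitro; dots are libraries and lines are means of 3. Klk10 and Igf2bp1 are the genes whose in vivo libraries (17.2 to 20.5 and 14.8 to 18.8 CPM) lie far below their in vitro libraries.

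Per length, Gpa33 was the most abundant of the genes in the niche. In TPM, a unit corrected for transcript length, Gpa33 averaged 48.7 ± 20.6 in niche libraries, Fhl2 18.5 ± 6.03 and Tns4 18.5 ± 3.33 (SD, n = 3 each). At the other end Klk10 averaged 4.63 ± 2.44 TPM in niche libraries and Igf2bp1 1.57 ± 0.791 TPM. In vivo 4T1 cells averaged 147 ± 7.07 TPM of Gpa33, 24.3 ± 3.49 TPM of Klk10 and 9.82 ± 0.257 TPM of Igf2bp1. Tfap2a (14.9 ± 2.17 TPM), Hmga2 (8.99 ± 2.28), Podnl1 (8.15 ± 1.47), Tnfrsf22 (5.90 ± 0.815) and E2f7 (4.83 ± 0.638) lay between in the niche. Of neighbours in that order, Gpa33 and Fhl2, Tfap2a and Hmga2, and Podnl1 and Tnfrsf22 had library ranges that did not overlap, and the other neighbours overlapped.

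Between the niche libraries labelled shSox9 and those without the label, 1 of the 10 genes was called different at an edgeR adjusted p below 0.05. Igf2bp1 was called lower and no gene was called higher, where 10.8% of all 17640 genes tested were called lower and 9.68% higher. By edgeR at an adjusted p, the share among the listed genes was therefore near that of all genes. At an unadjusted p below 0.05, and by DESeq2 at an adjusted one, 0 were higher and 2 lower. DESeq2 called 4300 genes in all, against 3616 by edgeR, and the share of all genes at an unadjusted p is not given. The median log2 fold change was -0.37 over the 10 genes and 0.02 over all genes. Igf2bp1 and Klk10 had the largest differences, both about the same size, and only that of Igf2bp1 passed the test.

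Igf2bp1, the gene of the oncofetal RNA-binding protein (ENSMUSG00000013415, chr11:95957163-96005940, minus strand), had 2.25, 0.62 and 1.31 CPM in shSox9-labelled libraries, against 4.13, 5.40 and 3.35 CPM in niche libraries and 0.871, 0.663 and 0.844 CPM in distal ones. These CPM rest on 46, 13 and 24 counts under the label, 94, 120 and 54 without it and 13, 9 and 11 in distal epithelium. All shSox9-labelled libraries lay below all niche libraries, and 1 of them lay below the distal range. Igf2bp1 was 3.08-fold lower under the label (log2 fold change -1.62, SE 0.42, edgeR adjusted p = 0.018). The call was lost without shSox9-labelled replicate 2 (adjusted p = 0.0515) or 3 (0.0622) and without niche replicate 1 (0.0523) or 2 (0.079), while the log2 fold change stayed between -2.15 and -1.27 when any library was left out. In deposited TPM, which correct for the length of the isoforms assigned, Igf2bp1 had 0.74, 0.12 and 0.35 under the label, against 1.72, 2.27 and 0.71 in niche libraries, so the highest labelled library just passed the lowest niche library on that scale.

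Klk10, the gene of the kallikrein-related peptidase (ENSMUSG00000030693, chr7:43781035-43785410, plus strand), had 2.25, 0.859 and 0.764 CPM in shSox9-labelled libraries, against 5.15, 4.59 and 1.55 CPM in niche libraries and 0.268, 0.663 and 0.537 CPM in distal ones. Counts were 46, 18 and 14 under the label, 117, 102 and 25 without it and 4, 9 and 7 in distal epithelium. The groups overlapped, because niche replicate 3 lay below shSox9-labelled replicate 1. Its log2 fold change of -1.54 (SE 0.53, adjusted p = 0.062 by edgeR) missed the threshold. The difference passed without shSox9-labelled replicate 1 (adjusted p = 0.0145) or niche replicate 3 (0.0248), and by DESeq2 (0.0423).

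As a share of the in vivo 4T1 level, Klk10 stood at 6.67% ± 4.30 in shSox9-labelled libraries and 19.5% ± 10.0 in niche libraries, and Igf2bp1 at 8.40% ± 4.93 in shSox9-labelled and 25.9% ± 6.26 in niche libraries (SD, n = 3 each). The next lowest gene under the label was Tns4 at 14.97% ± 8.11. By deposited TPM the share of Igf2bp1 was 4.11% under the label and 15.96% in niche libraries.

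**Figure D2:**
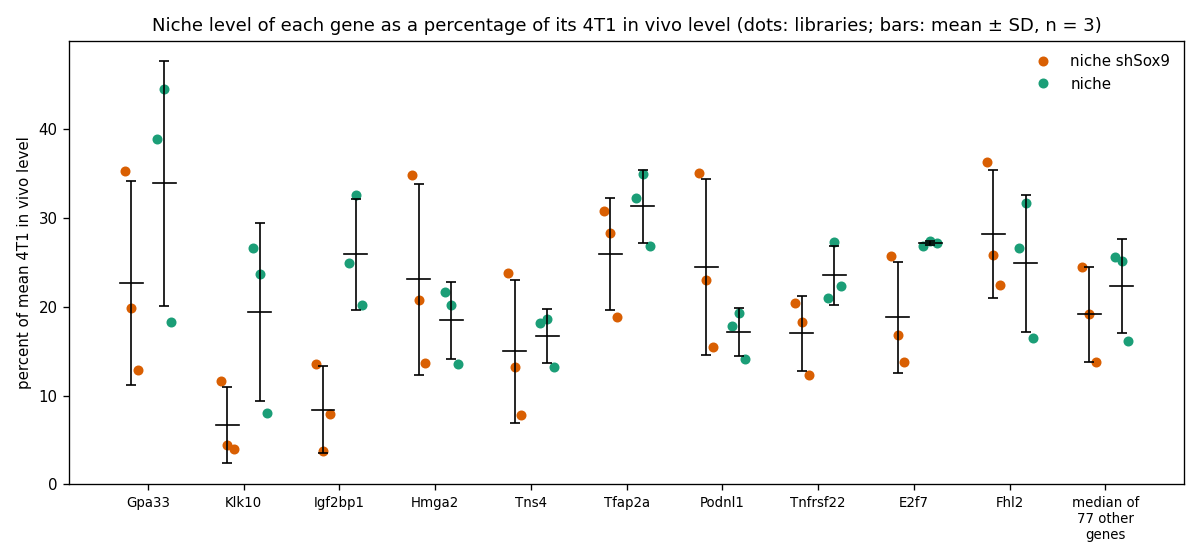
Level of each gene in niche libraries labelled shSox9 (orange) and niche libraries (green) as a percentage of the gene's mean in 3 in vivo 4T1 libraries; dots are libraries and bars the mean ± SD (n = 3). Klk10 and Igf2bp1 stand at 6.67% and 8.40% under the label, below the other 8 genes at 14.97% to 28.2%.

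Among the surface and matrix genes, Gpa33 had 74.3, 41.7 and 27.0 CPM in shSox9-labelled libraries, against 81.9, 93.7 and 38.5 CPM in niche libraries. These ranges overlapped (log2 fold change -0.58, SE 0.39, edgeR adjusted p = 0.33). Podnl1, the matrix protein, had 25.2, 16.6 and 11.1 CPM under the label, against 12.8, 13.9 and 10.2 CPM in niche libraries, and its log2 fold change of 0.52 was positive but not called (SE 0.31, edgeR adjusted p = 0.27). The decoy receptor gene Tnfrsf22 had 7.98, 7.12 and 4.80 CPM under the label, against 8.19, 10.6 and 8.72 CPM in niche libraries. All its labelled libraries were below all niche libraries, yet the difference was not called (log2 fold change -0.47, SE 0.30, edgeR adjusted p = 0.30). On the TPM scale, with 9.35, 5.59 and 4.72 under the label and 6.49, 6.24 and 4.97 in niche libraries, Tnfrsf22 overlapped. Its expected counts were not whole numbers, and how its reads were assigned rests on the authors' counting.

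The adhesion genes showed no called difference. Tns4 had 73.0, 40.7 and 24.1 CPM in shSox9-labelled libraries, against 55.9, 57.3 and 40.6 CPM in niche libraries (log2 fold change -0.16, SE 0.36, edgeR adjusted p = 0.80). Fhl2 had 25.3, 17.9 and 15.6 CPM under the label, against 18.5, 22.01 and 11.5 CPM in niche libraries (log2 fold change 0.18, SE 0.24, edgeR adjusted p = 0.65). Both genes overlapped between the groups, and both changed sign when 1 library was left out.

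Of the nuclear factors, Hmga2 had 38.8, 23.2 and 15.3 CPM in shSox9-labelled libraries, against 24.2, 22.5 and 15.1 CPM in niche libraries. Its libraries overlapped between the groups, with a log2 fold change of 0.32 (SE 0.33, edgeR adjusted p = 0.53). Tfap2a had 24.6, 22.7 and 15.04 CPM under the label, against 25.8, 27.9 and 21.5 CPM in niche libraries (log2 fold change -0.27, SE 0.18, edgeR adjusted p = 0.34). E2f7 had 9.38, 6.15 and 5.02 CPM under the label, against 9.81, 9.99 and 9.91 CPM in niche libraries, the narrowest spread of any listed gene in the niche. Its labelled libraries lay below all niche libraries, and the difference was not called (log2 fold change -0.53, SE 0.38, edgeR adjusted p = 0.37). Igf2bp1, Tnfrsf22 and E2f7 were the genes whose libraries did not overlap, all lower, where 19.9% of tested genes were lower without overlap.

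Within a group the genes shifted together from library to library. Replicate 1 of the shSox9-labelled niche had the highest level of all 10 genes and replicate 3 the lowest of 9. In the niche, replicate 2 was highest for 8 genes and replicate 3 lowest for 8. The median over the 10 genes was 28.2%, 19.1% and 13.3% of the in vivo level in the shSox9-labelled libraries and 25.8%, 27.4% and 17.4% in the niche libraries, in order of replicate. In bulk libraries, fewer cells that carry a transcript and less of it per cell cannot be told apart, and whether epithelial cells or 4T1 cells within the sorted fraction carried these transcripts was not tested.

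The same order of size held in genes with the same starting pattern. With at least 10 CPM in each 4T1 library and at most 1 CPM in each distal library there were 17 genes, of which Klk10 and Igf2bp1 were 2; the highest distal library of Tns4 had 8.05 CPM and that of Tfap2a 1.10 CPM, which kept the other 8 out. A wider class, set after values had been seen, asked for at least 10 CPM in each 4T1 library and a mean distal level of at most 5% of the in vivo mean. It held 87 genes, all 10 listed ones among them, and Sox9 was 1 of the others. The 77 others had a median of 19.8% of their in vivo level in shSox9-labelled libraries (quartiles 13.98% and 26.4%) and 22.2% in niche libraries (quartiles 17.4% and 27.6%). The 15 unlisted genes of the first class had medians of 21.2% in shSox9-labelled and 21.5% in niche libraries. The listed genes, at medians of 20.7% in shSox9-labelled and 24.2% in niche libraries, thus lay near the medians of both classes. Of 76 others tested between the niche groups, 1 was called higher under the label and 6 lower, with a median log2 fold change of -0.14.

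Divided by the median percentage of these 77 genes in the same library, Klk10 stood at 0.475, 0.231 and 0.287 in shSox9-labelled libraries, against 1.04, 0.946 and 0.495 in niche libraries. Igf2bp1 stood at 0.554, 0.195 and 0.573 under the label, against 0.975, 1.30 and 1.25 in niche libraries. E2f7 stood at 1.050, 0.878 and 0.998 under the label, against 1.051, 1.09 and 1.68 in niche libraries. On this ratio all labelled libraries of these 3 genes lay below every niche library, for Klk10 and E2f7 by a narrow margin. Podnl1 went the other way, with 1.43, 1.20 and 1.12 under the label, against 0.698, 0.771 and 0.873 in niche libraries, and so did Hmga2, with 1.42, 1.08 and 0.993 under the label, against 0.847, 0.805 and 0.836 in niche libraries. Fhl2 had 1.48, 1.34 and 1.63 under the label, against 1.04, 1.26 and 1.02 in niche libraries. Tfap2a was much the same in both groups, with 1.26, 1.48 and 1.36 under the label and 1.26, 1.39 and 1.66 in niche libraries. Gpa33, Tns4 and Tnfrsf22 overlapped too. So 3 of the 10 genes were lower and 3 higher without overlap, beside 15 and 24 of the 77 others, and 7.06% and 10.8% of all genes tested. No test was run on these ratios.

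In 4T1 cells, growth in the lung went with lower Klk10 and Igf2bp1 by a wide margin. Of the 10 genes, 6 were called lower in vivo than in vitro and 1 higher, where 24% of the 14022 genes tested were called lower and 27% higher. The genes had been chosen as high in both 4T1 groups, which fixed neither direction. Klk10 had 20.5, 20.3 and 17.2 CPM in vivo, against 166, 187 and 155 CPM in vitro, an 8.71-fold lower level (log2 fold change -3.12, SE 0.11, edgeR adjusted p = 2.8e-07). Igf2bp1 had 14.8, 18.8 and 16.1 CPM in vivo, against 107, 109 and 105 CPM in vitro, 6.42-fold lower (log2 fold change -2.68, SE 0.11, edgeR adjusted p = 4.0e-07).

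The other called genes changed by less than those. Tnfrsf22 had 39.7, 39.1 and 38.2 CPM in vivo, against 73.7, 84.0 and 59.6 CPM in vitro (log2 fold change -0.89, SE 0.12, edgeR adjusted p = 0.00032). Podnl1 fell by 0.52 on the log2 scale (adjusted p = 0.0038), E2f7 by 0.47 (0.0088) and Fhl2 by 0.32 (0.019). Tfap2a was the gene called higher, with 78.8, 89.6 and 71.5 CPM in vivo, against 59.5, 63.6 and 62.6 CPM in vitro (log2 fold change 0.38, SE 0.10, edgeR adjusted p = 0.013). Each of these 7 genes had libraries that did not overlap between the groups, where 28.7% of genes tested were lower and 31.5% higher without overlap. The log2 fold changes of Gpa33 (-0.21, adjusted p = 0.29), Hmga2 (-0.13, 0.35) and Tns4 (0.10, 0.57) were not called. The call of Tfap2a was lost without in vivo replicate 2 (adjusted p = 0.0605), and that of Fhl2 without in vivo replicate 1 (0.062) or 2 (0.0597) or in vitro replicate 2 (0.0719). With all 15 libraries in one fit, Podnl1 (adjusted p = 0.083), E2f7 (0.139), Fhl2 (0.195) and Tfap2a (0.058) were not called. Gpa33 was called lower without in vitro replicate 3 (0.0156).

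**Figure D3:**
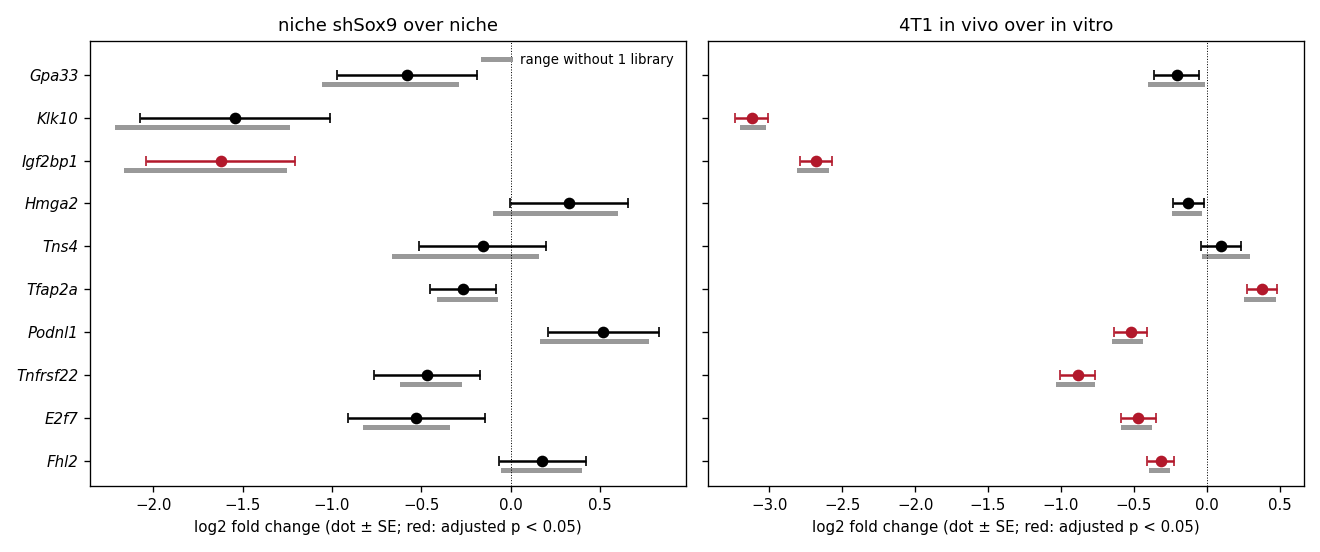
Log2 fold change (dot ± SE) of each gene in niche labelled shSox9 over niche and in 4T1 in vivo over in vitro; red marks an edgeR adjusted p below 0.05 and grey bars the range of fold changes when 1 library is left out. Igf2bp1 is red in both panels (-1.62 and -2.68), and Klk10, at -1.54 and -3.12, in the right panel.

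The genes that stood lowest under the shSox9 label were therefore those with the largest difference between lung and dish in 4T1 cells. Of the 86 genes of the wider class tested in both comparisons, Klk10 and Igf2bp1 ranked 1 and 2 for the fall in vivo, and Igf2bp1 and Klk10 ranked 2 and 3 for the lowest fold change in shSox9-labelled niche against niche. Lgals7, which encodes a galectin of stratified epithelium, ranked 1 there with -1.64 (edgeR adjusted p = 0.0047) and had a log2 fold change of 1.34 in vivo against in vitro. Across the 76 genes that are not listed, the 2 fold changes had a Pearson correlation of 0.253 and a Spearman correlation of 0.389. That is a description across genes, which are no independent replicates; the libraries of the 2 comparisons are different ones.

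**Figure D4:**
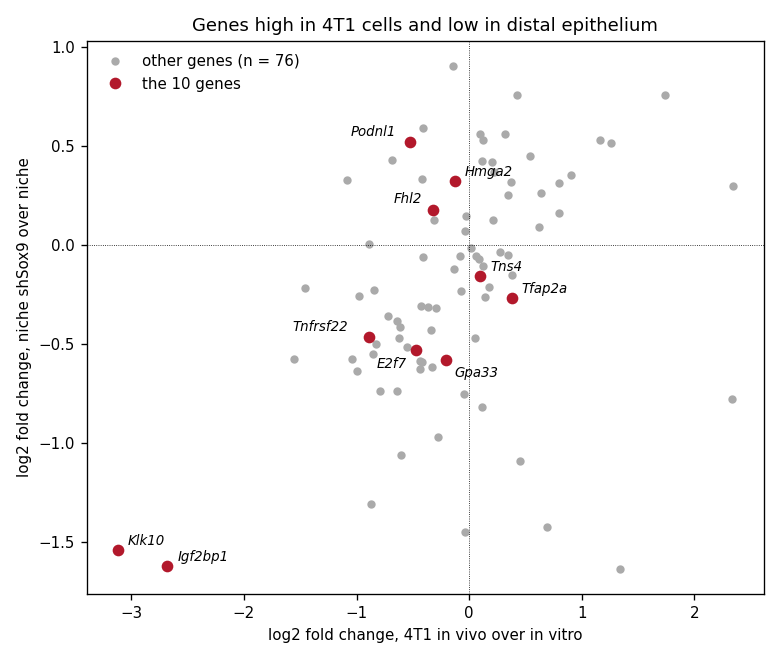
Log2 fold change of 4T1 in vivo over in vitro (x axis) and of niche labelled shSox9 over niche (y axis) for 86 genes high in 4T1 cells and low in distal epithelium; red dots are the 10 listed genes and grey dots the 76 others. Klk10 (-3.12, -1.54) and Igf2bp1 (-2.68, -1.62) sit alone in the lower left.

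Relatives of the listed genes were followed family by family. Their calls between the niche groups stand beside 9.68% of all 17640 genes tested called higher and 10.8% called lower by edgeR. Of 5 kallikrein genes tested between the niche groups besides Klk10, Klk13 (log2 fold change 1.48, edgeR adjusted p = 0.028) and Klk14 (2.57, 0.034) were called higher under the label and none lower, also at an unadjusted p and by DESeq2. They had means of 1.66 and 0.604 CPM in shSox9-labelled libraries, 0.594 and 0.0957 CPM in niche libraries and 8.48 and 2.06 CPM in distal libraries, an order opposite to that of Klk10. Klk1 (-0.88, 0.46), Klk8 (-1.01, 0.34) and Klk11 (-0.74, 0.76) had negative log2 fold changes, as Klk10 did, and were not called. The median over the 5 was -0.74. Klk8 averaged 0.530 CPM under the label and 1.06 CPM in niche libraries, and Klk11 0.0163 CPM under the label and 0.0300 CPM in niche libraries. In 4T1 cells, Klk6 and Klk8, neighbours in the same family, were both called lower in vivo, with means of 0.109 and 2.95 CPM in vivo and 2.01 and 5.54 CPM in vitro.

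Of 12 tested genes of the let-7 and oncofetal list besides Igf2bp1 and Hmga2, none was called between the niche groups by edgeR, with a median log2 fold change of -0.01. At an unadjusted p below 0.05, 3 were higher and 2 lower, and DESeq2 called 1 higher. Igf2bp2 averaged 40.6 CPM under the label and 41.3 CPM in niche libraries, and Igf2bp3 averaged 2.74 CPM under the label and 5.49 CPM in niche libraries (adjusted p = 0.083). Hmga1, the other architectural protein, averaged 65.5 CPM under the label and 68.2 CPM in niche libraries, and Myc 122 CPM under the label and 124 CPM in niche libraries. Of 9 tested in 4T1 cells, Igf2bp2, Plagl2 and Myc were called lower in vivo and H19 higher, H19 with a mean of 14.4 CPM in vivo and 0 counts in every in vitro library. Lin28a and Lin28b, which block the maturation of let-7, averaged at most 0.191 CPM in any of the 5 groups.

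E2f7 sits among E2F family genes and their targets, and several of these moved with the label. Of the other 7 E2F genes, E2f1 (log2 fold change -0.89, edgeR adjusted p = 0.022) and E2f2 (-0.87, 0.018) were called lower in shSox9-labelled niche libraries, none higher, also at an unadjusted p and by DESeq2. E2f8, the other atypical E2F gene, averaged 15.99 CPM under the label and 22.2 CPM in niche libraries (adjusted p = 0.21). Of 18 cell cycle genes 10 were called lower and none higher by edgeR, with a median of -0.77, where 10.8% of all genes were called lower. At an unadjusted p below 0.05 the counts were 14 lower and 0 higher, and by DESeq2 12 and 0. The shares of all genes at those settings are not given. Ccne1, which encodes cyclin E1, averaged 7.44 CPM under the label and 20.6 CPM in niche libraries (log2 fold change -1.46, edgeR adjusted p = 0.00056), and Cdk1 26.1 CPM under the label and 55.1 CPM in niche libraries (-1.07, 0.0074). The other 8 called lower were the replication genes Pcna (-0.71, 0.00091), Rrm2 (-0.97, 0.0097), Mcm2 (-0.78, 0.021), Mcm3 (-0.77, 0.023) and Ccne2 (-0.79, 0.038) and the mitotic genes Bub1 (-0.83, 0.031), Birc5 (-0.59, 0.039) and Top2a (-0.82, 0.049). E2f3, E2f4, E2f5 and E2f6 were not called, with log2 fold changes between -0.24 and 0.08.

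Among 5 other genes of the TRAIL ligand and receptor list, 3 were called lower under the label, where 10.8% of all genes tested were. Tnfrsf26 averaged 15.1 CPM in shSox9-labelled libraries and 29.1 CPM in niche libraries (log2 fold change -0.94, edgeR adjusted p = 0.013). Tnfrsf11b, which encodes osteoprotegerin, averaged 6.25 CPM under the label and 17.8 CPM in niche libraries (-1.50, 0.0034), and Tnfsf10, the gene of TRAIL itself, 7.54 CPM under the label and 19.6 CPM in niche libraries (-1.37, 0.00028). Tnfrsf23 and Tnfrsf10b were not called.

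For the adhesion genes, Tns1 (log2 fold change 0.80, edgeR adjusted p = 0.0026) and Tns2 (0.81, 0.0069) were called higher under the label, and Tns3 (0.21, 0.35) was not. Fhl1 was called higher (0.76, 0.015), with means of 516 CPM in shSox9-labelled and 305 CPM in niche libraries, and Fhl3 (-0.19, 0.73) and Fhl4 (0.89, 0.22) were not. Tfap2c, which encodes AP-2 gamma, was the AP-2 gene tested besides Tfap2a. It was called higher in vivo, with 7.90 CPM in vivo and 0.673 CPM in vitro (log2 fold change 3.59). Of 7 tested genes of the GPA33 list, Cxadr (1.03, 0.0019), Esam (0.74, 0.0039) and Vsig2 (1.19, 0.043) were called higher under the label, and all 3 were lower in niche than in distal libraries. F11r (-0.08, 0.70), Jam2 (0.51, 0.22), Jam3 (0.47, 0.35) and Clmp (0.39, 0.13) were not called. Podn, the relative of Podnl1, had a log2 fold change of 0.47 (adjusted p = 0.14).

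Cell-type markers moved with the label beside these genes. Of 9 AT2 genes, 8 were called higher in shSox9-labelled than in niche libraries, and of 7 macrophage genes 6 were called lower, as were 3 of 3 pan-leukocyte genes. Of 6 AT1 genes 3 were called higher, of 5 lymphocyte genes 1 higher, and of 5 endothelial genes 2 lower. No club or neutrophil gene was called. Of all genes tested, 9.68% were called higher and 10.8% lower. Epcam, the surface protein by which the cells are titled, had 33.3, 27.1 and 23.8 CPM under the label, against 66.6, 71.8 and 29.6 CPM in niche libraries (log2 fold change -0.995, edgeR adjusted p = 0.021). Of 4 epithelial genes it was the only 1 called. Cdh1 (log2 fold change 0.39, edgeR adjusted p = 0.29), Krt8 (0.08, 0.86) and Krt18 (-0.07, 0.87) were not. The 4 genes summed to means of 1058 CPM under the label and 1071 CPM in niche libraries. The part of these shifts, and of the lower cell cycle genes, in the levels of Igf2bp1 and Klk10 was not tested. Macrophage genes summed to 26.4 ± 19.6 CPM in vivo and 10.9 ± 1.35 CPM in vitro in the 4T1 groups (SD, n = 3 each).

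Over all 15 libraries, the mean pattern of the 10 genes was most like that of Nek2, a mitotic kinase gene (Pearson r = 0.996), Knstrn, a kinetochore gene (0.996), Cip2a (0.996), Kif2c, a mitotic kinesin gene (0.995), and Myc (0.995), among 10325 genes with a mean of at least 5 CPM in vivo. This is a likeness over log2 levels and all groups. Their niche levels were 31.2% to 38.2% of their in vivo levels. Within the list, the pattern of each gene was compared with the mean of the other 9, a likeness that the choice of the genes likewise raises. Tnfrsf22 was closest (r = 0.993), and Igf2bp1 (0.887) and Klk10 (0.892) were farthest.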

How the data were processed

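RNA sequencing of 15 libraries was used, with groups read from their titles. Per the submitters' processing notes the authors used RSEM and DESeq2 on GRCm38; no source used here gives versions, aligner, annotation release or strand setting. In the tables, the deposited expected counts are RSEM estimates; 11.8% to 14.1% of values per library were not whole, and they were rounded for testing. TPM values, also deposited by the authors, correct for transcript length, and the deposited FPKM values were not used. Of 54838 identifiers, 54723 matched GENCODE M21. Replicate pairs differed by a chi-square per degree of freedom of 8.27 to 43.4, so none was counted as a duplicate.

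Tests were run in edgeR 4.0.16 (quasi-likelihood, TMM, filterByExpr) in R 4.3.3, adjusted by Benjamini-Hochberg over all genes tested, with the 9 epithelial and the 6 4T1 libraries fitted apart. The code was tested on simulated counts. Levels are CPM after TMM over all 15 libraries, given as mean ± SD. All 10 listed genes are named, and from the lists of related genes those past an adjusted p of 0.05 between the niche groups and the paralogues of a listed gene with at least 1 CPM in any group. Several further relatives and Lgals7 are named after their values were seen. The members and lists were chosen with earlier results of these data known. DESeq2 1.42.0, RLE factors, no filter, other sample sets, the replicate block and leaving out each library were the alternatives. Sequences came from RefSeq tables and GENCODE transcripts. The floor in CPM covers counting error only. SE values come from the quasi-likelihood fit, which includes the spread between libraries.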

Additional observations from a re-analysis of the deposited data

How the results depend on the processing

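Between the niche groups, 2 listed genes (Igf2bp1 and Klk10) were called lower without the filter and by DESeq2, against 1 in the main analysis. Leaving out 1 library gave 0 to 2 lower calls: 0 without shSox9-labelled replicate 2 or 3 or niche replicate 1 or 2, and 2 without shSox9-labelled replicate 1 or niche replicate 3. Genes called over the whole table then ranged from 2238, without niche replicate 1, to 4224, against 3616. In 4T1 cells, with all 15 libraries in one fit, 0 listed genes were called higher and 3 lower (Podnl1, E2f7, Fhl2 and Tfap2a lost their calls); leaving out 1 library gave 0 to 1 higher, with 0 without in vivo replicate 2, and 5 to 7 lower. In 4T1 cells, 7573 genes were called in either direction with all 15 libraries, against 7151 in the main analysis. Leaving out 1 library gave 6034 to 7378. Between the niche groups, 3973 genes were called without the filter and 4300 by DESeq2. The shares of all genes called in each direction at these alternative settings are not given. The cause of the differing calls was not tested. Changes of sign were limited to uncalled genes: leaving out 1 library gave Hmga2 a log2 fold change of -0.088 to 0.585 between the niche groups (negative without shSox9-labelled replicate 1), Fhl2 -0.043 to 0.383 (negative without niche replicate 3 and, at -0.040, without shSox9-labelled replicate 1), Tns4 -0.652 to 0.143 (positive without shSox9-labelled replicate 3), and Tns4 -0.017 to 0.273 in vivo against in vitro (negative without in vitro replicate 1). Across 11 alternatives the adjusted p of Igf2bp1 between the niche groups lay between 0.0027 and 0.079, and that of Klk10 between 0.012 and 0.219.

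The replicate numbers share no stated litter or day, and the deviations of same-numbered shSox9-labelled and niche libraries correlated at 0.107, 0.0755 and 0.0781, not above 0.1 in every pair, so the numbers were not taken to pair the libraries. Each shSox9-labelled library correlated best with the niche library of its own number, a hint from the data only. With the replicate number as a block, 1 listed gene was again called lower (Igf2bp1, log2 fold change -1.71, adjusted p = 0.024), with 3638 genes called in all. At 13 to 120 counts, Igf2bp1 and Klk10 in the niche groups rest on few reads.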
